A study of Mus musculus with 15 samples.

Results

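The regions described here were stretches of open chromatin at the ends of protein-coding genes that were found in every genotype of a mouse mTOR study. Peaks of 3 ATAC-seq lists on chromosomes 1 to 19, X and Y were merged wherever they overlapped or touched. A merged region was kept when each list had a peak in it and when it came within 1000 bp of an annotated start or end of a protein-coding gene. This left 7515 of 32764 merged regions, or 22.9% (Wilson 95% interval 22.5 to 23.4, counting error over regions alone). The regions were thus chosen by the peak calls of the 3 lists and by position, so both of these are descriptions and not findings, and the scores come from the same calls.

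The study sorted haematopoietic stem cells (HSC), the rare marrow cells from which all blood lineages arise, from adult mice and profiled them by ATAC-seq (3 libraries, 1 per genotype) and RNA-seq (12 samples, not analysed here). All animals received poly(I:C), a double-stranded RNA mimic that sets off the interferon response and thereby switches on Cre from the Mx1 promoter. The control (WT) was Mx1-Cre-/-;mTORflox/flox, the knockout (KO) Mx1-Cre+/-;mTORflox/flox, and the knock-in (KI) Mx1-Cre+/-;mTORflox/knockin. Each transposition used 50000 cells at 37 °C for 30 min. Cre was thus present in both mutants and absent from the control, Mx1 drives it in many interferon-responsive cells besides HSC, and recombination in any cell was not measured by the peak lists. Re-analysis is noted in the labels for WT and KO alone, which means that KI and a possible batch cannot be told apart. There were no replicates, so differences between lists carry no replicate error and no test was made.

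ATAC-seq marks DNA that a transposase can reach, and the most regular place of access in a nucleus is the nucleosome-depleted stretch at an active or poised promoter. In mammals most promoters of broadly expressed genes lie in CpG islands, sequences that have escaped the loss of CpG caused by DNA methylation, and they are bound by factors such as the SP/KLF, ETS, NRF1, NF-Y and YY1 proteins. Enhancers away from genes differ far more between cell types and states than such promoters do.

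Promoters of strongly scored regions are shown to make that sequence class visible. They come from the RefSeq promoter table (GRCm38.p6, the assembly of mm10), run from 250 bases before to 50 bases after an annotated start, and are written 5′ to 3′ on the strand of the gene. The first pair lay at 2 of the 4 regions that ranked highest over the lists together; capitals mark each GGGCGG (the GC box of SP/KLF factors) and each CCAAT (NF-Y), on either strand. Sp4, itself a GC-box factor, lies on the minus strand at chr12:118301391-118301690, and Evi5l, a Rab GTPase-activating protein, on the plus strand at chr8:4166317-4166616.
Sp4: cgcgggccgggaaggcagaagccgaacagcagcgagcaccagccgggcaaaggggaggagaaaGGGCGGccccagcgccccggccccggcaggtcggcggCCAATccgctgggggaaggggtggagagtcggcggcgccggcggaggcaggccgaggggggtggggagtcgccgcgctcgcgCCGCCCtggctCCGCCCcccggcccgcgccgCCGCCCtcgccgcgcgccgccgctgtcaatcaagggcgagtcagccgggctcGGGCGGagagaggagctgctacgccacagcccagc
Evi5l: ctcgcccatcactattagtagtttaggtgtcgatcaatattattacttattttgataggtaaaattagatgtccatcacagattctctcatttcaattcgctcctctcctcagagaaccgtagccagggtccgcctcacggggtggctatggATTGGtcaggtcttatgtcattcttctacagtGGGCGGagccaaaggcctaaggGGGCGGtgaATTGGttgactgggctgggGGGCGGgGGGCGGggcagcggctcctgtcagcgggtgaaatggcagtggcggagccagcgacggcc

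The next promoters each had the highest-ranked region among those with a given motif that had not been shown, and capitals mark that motif on either strand. Mon1b (chr8:113635549-113635848, plus strand), of the MON1-CCZ1 exchange factor, carried the ETS motif CCGGAAGT at both marked places. Vkorc1l1 (chr5:129941859-129942158, plus strand), a vitamin K epoxide reductase, carried NRF1's GCGCATGCG. Rab22a (chr2:173659595-173659894, plus strand), an endosomal GTPase, carried the YY1 motif AAGATGGCG in both orientations. Cep57 (chr9:13827004-13827303, minus strand), a centrosomal protein, carried the cAMP response element (CRE) TGACGTCA. Dnpep (chr1:75317588-75317887, minus strand), an aminopeptidase, carried the E-box CACGTG. Zfp317 (chr9:19621841-19622140, plus strand), a zinc finger protein, carried a TATA box, TATAAA.
Mon1b: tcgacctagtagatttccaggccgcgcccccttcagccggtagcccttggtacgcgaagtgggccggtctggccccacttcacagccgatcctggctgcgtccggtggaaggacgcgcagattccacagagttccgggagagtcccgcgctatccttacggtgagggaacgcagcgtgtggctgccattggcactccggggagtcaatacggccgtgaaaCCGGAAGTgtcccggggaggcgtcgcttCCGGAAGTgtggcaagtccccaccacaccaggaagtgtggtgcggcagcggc
Vkorc1l1: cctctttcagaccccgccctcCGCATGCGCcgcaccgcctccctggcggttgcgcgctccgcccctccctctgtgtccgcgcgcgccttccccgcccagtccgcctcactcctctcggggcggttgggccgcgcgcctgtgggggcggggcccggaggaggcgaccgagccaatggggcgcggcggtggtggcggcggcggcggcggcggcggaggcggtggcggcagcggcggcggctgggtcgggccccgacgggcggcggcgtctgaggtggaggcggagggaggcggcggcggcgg
Rab22a: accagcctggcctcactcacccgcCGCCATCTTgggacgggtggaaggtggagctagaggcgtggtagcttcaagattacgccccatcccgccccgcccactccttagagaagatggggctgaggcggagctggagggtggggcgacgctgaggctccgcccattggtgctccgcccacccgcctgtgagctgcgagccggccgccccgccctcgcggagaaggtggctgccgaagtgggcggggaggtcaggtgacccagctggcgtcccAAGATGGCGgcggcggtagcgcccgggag
Cep57: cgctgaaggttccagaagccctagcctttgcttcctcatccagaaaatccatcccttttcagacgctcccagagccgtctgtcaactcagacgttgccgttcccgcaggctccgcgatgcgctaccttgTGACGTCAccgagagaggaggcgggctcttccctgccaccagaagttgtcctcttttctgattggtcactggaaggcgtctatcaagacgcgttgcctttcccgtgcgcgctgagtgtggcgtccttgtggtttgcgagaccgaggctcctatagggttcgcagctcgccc
Dnpep: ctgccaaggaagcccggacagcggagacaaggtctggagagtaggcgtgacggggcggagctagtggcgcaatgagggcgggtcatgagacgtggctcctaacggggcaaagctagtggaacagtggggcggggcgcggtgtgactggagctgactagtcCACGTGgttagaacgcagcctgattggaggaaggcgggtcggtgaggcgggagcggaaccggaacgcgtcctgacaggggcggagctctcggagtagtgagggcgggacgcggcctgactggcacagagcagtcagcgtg
Zfp317: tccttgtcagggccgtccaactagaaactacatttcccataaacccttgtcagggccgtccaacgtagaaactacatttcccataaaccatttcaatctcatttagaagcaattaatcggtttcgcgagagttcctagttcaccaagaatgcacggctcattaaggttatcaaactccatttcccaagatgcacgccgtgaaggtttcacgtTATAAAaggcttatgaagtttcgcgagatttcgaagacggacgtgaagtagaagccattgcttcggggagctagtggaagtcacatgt

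At least 1 region lay at 8651 of 21887 protein-coding genes, 39.5% (38.9 to 40.2), and this is the share against which gene groups are read below. Mtor, the targeted gene, was not among them: WT and KI had a peak at an end of it and KO had none. RefSeq gave the strand for 17492 genes, and of the 6221 regions where it was known for the classification, 98.0% (97.6 to 98.3) were at a gene start. In all, 6098 regions (81.1%) were at a start, 123 (1.64%) at a 3′ end alone and 1294 (17.2%) at genes of unknown strand. A region near any start was counted there, even if it also lay near a 3′ end or a gene of unknown strand. A region near a 3′ end and a gene of unknown strand counted as unknown, so this order favours starts. The nearest annotated end lay inside the region in 90.1% of cases.

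Most regions belonged to 1 gene (6123 regions, 81.5%), while 1353 lay at 2 genes and 38 at 3. The region with the most genes, at Tomm6, which encodes a small subunit of the mitochondrial import pore, touched 5 (Tomm6, Prickle4, Frs3, Gm20517 and Usp49). It was 802 bp wide and mid-ranked in every list. Among the 38 tied at 3 genes were the region of Lmnb2, a nuclear lamin, with Timm13 and Tmprss9, and the region of Pmel, Rab5b and the cell cycle kinase gene Cdk2. For 781 regions (10.4%), starts of genes on both strands lay inside or within 1000 bp. Whether these starts pointed apart, as at a bidirectional promoter, was not checked. These regions were wider than the 5317 regions with starts on 1 strand (median 1100 against 1000 bp), though a wider region also reaches more starts. They also ranked higher, with median percentiles among all common regions of 69.2 in WT, 69.9 in KO and 71.7 in KI against 61.4, 60.8 and 62.5. The 123 regions at a 3′ end alone were narrower (median 685 bp) and ranked low, at median percentiles of 26.4, 27.3 and 21.0.

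Gene-end regions were more often shared between the genotypes than regions elsewhere. Of 11303 merged regions at gene ends, 66.5% (65.6 to 67.4) had a peak in all lists, against 22.2% (21.7 to 22.8) of the 21461 farther from genes. Only 18.9% of gene-end regions came from a single list, compared with 55.4% of the others. Read the other way, gene-end regions made up 61.2% (60.3 to 62.0) of the 12282 regions common to all lists, the remaining 4767 being distal.

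Widths were regular. The median region spanned 1000 bp (quartiles 788 and 1280; 342 to 6404), against 717 bp for distal common regions, and all 7515 together covered 8.08 Mb. The median width of the peaks inside was 777 bp (WT), 731 bp (KO) and 871 bp (KI). KI had the widest peak in 51.8% of regions, WT in 28.4% and KO in 19.6%. At distal common regions the corresponding shares were 40.6%, 35.6% and 23.6%, so KI peaks were most often the widest in both classes. The KI list was also the longest, at 28391 peaks against 17316 in WT and 19189 in KO, and read depth is unknown; its part in the widths was not tested. In 18 regions (0.24%) no base was covered by all lists at once, so the peaks only chained together.

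The score deposited with each peak is read here in the form that MACS writes, 10 times the negative log10 of a p-value. It grows with read depth, so it was compared within a list only. In WT the regions scored from 50.12 to 891.88 with a median of 147 (quartiles 98.2 and 218). In KO the median was 137 (94.5 and 200; 50.03 to 839.95) and in KI 222 (154 and 315; 50.16 to 1305.41). The distal common regions had medians of 94.2, 93.3 and 135 in the same lists. In ranks, the median region stood at the 72.4th percentile of the WT list, the 74.6th of KO and the 83.5th of KI. Of the regions, 45.9% reached the top 25% of the WT list, 49.2% that of KO and 69.7% that of KI, where common regions are a smaller part of a longer list.

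**Figure D1:**
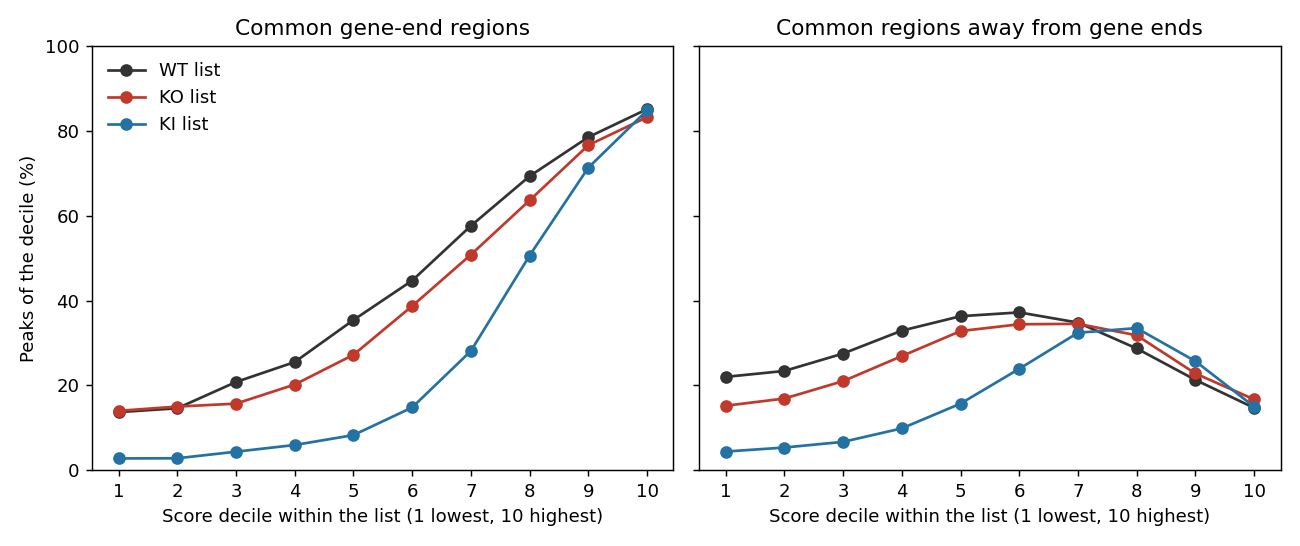
Share of each list's peaks that fell in common gene-end regions (left) and in common regions away from gene ends (right), by decile of the score within the list (x axis, 10 highest; y axis, percent of the decile's peaks). The gene-end share rose to 85.1% in WT, 83.2% in KO and 84.8% in KI, while the distal share was highest in decile 6 in WT, 7 in KO and 8 in KI and fell above it.

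The strongest peaks of each list were mostly of this class. In WT, common gene-end regions held 13.7% of the peaks in the lowest decile by score and 85.1% in the highest. In KO the share went from 14.0% to 83.2%, and in KI from 2.78% to 84.8%, as the plot by score decile shows. Peaks outside all common regions were almost missing at the top: 0.173% of the highest WT decile, 0.104% in KO and 0.211% in KI. Common regions were chosen by calls in all 3 lists, and a high-scoring peak is more easily called again. The rise with score thus follows in part from the rule. Among the 774 common regions that were in the top decile in every list, 660 (85.3%) were at gene ends, against 42 of the 154 (27.3%) in the bottom decile in every list. Higher scores went with wider peaks, with Spearman's rho over the 7515 regions of 0.685 in WT, 0.642 in KO and 0.58 in KI; both measures come from the same reads, and the regions are not replicates.

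Regions were ordered by their lowest rank over the lists, and the first was at Ripk2, the kinase that relays signals from NOD receptors of bacterial cell wall fragments (chr4:16163026-16164517). It scored 891.88 in WT, 836.76 in KO and 1305.41 in KI, which put it at ranks 16, 17 and 11 of the common regions. Next came Sp4, the GC-box factor whose promoter is printed above, with scores of 779.93 in WT, 745.04 in KO and 1023.64 in KI. The zinc finger repressor gene Zbtb20 scored 831.95, 839.95 and 945.98, and Evi5l 695.85, 660.01 and 1008.79, in the same order. These 4 stood within the first 26 of 12282 common regions in every list. The other 6 of the first 10 were at Zfp78, the ubiquitin ligase gene Pja2, Khsrp with Slc25a41 (the former an RNA-binding decay factor), Qdpr (which regenerates tetrahydrobiopterin), Aasdhppt with Kbtbd3, and Garem1 (a GRB2 adaptor).

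The widest regions were not the strongest. Gm52481 on chromosome Y (6404 bp) ranked at the 18.9th percentile in WT, 5.67th in KO and 14.5th in KI. Gm20783 with LOC108167694 (3749 bp) was at the 99.0th, 95.9th and 98.0th. Spry2 (3371 bp), an antagonist of receptor tyrosine kinase signalling, Fzd5 (3364 bp), a Wnt receptor, and Ddit3 with Mbd6 (3337 bp), the former the stress factor CHOP, lay between the 59.0th and 91.3rd percentiles. The weakest in all lists were at Coro1c (an actin-binding protein; scores 51.56, 53.22 and 54.85, at its 3′ end), Sntb1, Rrp1b, Spag17 and D7Ertd443e, all at or under the 3.79th percentile. At the edge of the window, the regions of Ier2, Msantd2 and Uaca lay 998 bp from the gene end and were kept, whereas those nearest Fbxo7 (1003 bp), Maged2 (1005 bp) and Ebf2 (1007 bp) were not. Their scores overlapped: 66.21, 214.68 and 78.25 in WT inside, and 100.28, 75.41 and 137.0 outside.

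The order of the regions was similar in the lists. Over the 7515 regions, Spearman's rho of the scores was 0.786 between WT and KO, 0.833 between WT and KI and 0.823 between KO and KI, as a description of regions that share sequence and mappability. For distal common regions it was 0.577, 0.643 and 0.652. The median region moved by 10.3 percentile points between WT and KO, 9.21 between WT and KI and 9.43 between KO and KI, and the median distal one by 13.4, 11.8 and 12.1.

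Shifts of 25 points or more were counted per direction, beside the share over all 12282 common regions. KO was lower than WT by that much at 768 gene-end regions (10.2%, against 10.8% of all common regions) and higher at 677 (9.01% against 10.6%). KI was lower than WT at 462 (6.15% against 8.33%) and higher at 612 (8.14% against 8.19%). KI was lower than KO at 448 (5.96% against 8.61%) and higher at 742 (9.87% against 8.87%). The shares lay near those of all common regions, apart from fewer regions lower in KI. Without replicates, how much of any shift is sampling cannot be told apart from a difference of genotype.

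The largest shifts were at genes of varied roles. At Mid1, a microtubule-associated ubiquitin ligase whose mouse gene crosses the pseudoautosomal boundary, the 3′ region scored 61.7 in WT, 266.29 in KO and 412.45 in KI. That is the 8.69th percentile in WT, the 91.7th in KO and the 91.8th in KI. How reads shared by X and Y were placed is not given in the sources used here, and its part was not tested. Fndc3b (11.2th, 82.5th and 61.1st) and the lymphoid factor gene Irf4 (2.95th, 72.5th and 9.9th) followed among those higher in KO than in WT.

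Lower in KO than in WT were Trim27, a ubiquitin ligase (92.0th in WT, 19.2nd in KO, 64.9th in KI), the receptor gene Gpr19 (78.6th, 6.33rd, 64.0th) and Smap2, an ARF GTPase-activating protein (79.2nd, 7.59th, 57.4th). KI ranked between WT and KO at these genes, which were picked for the gap between WT and KO alone. Higher in KI than in WT, after Mid1, were the deubiquitinase gene Usp2 (12.5th in WT, 55.5th in KO, 83.8th in KI) and the shared region of Aida and Brox (7.18th, 44.6th, 77.7th). Lower in KI than in WT were the LIM-domain gene Fhl3 at its 3′ end (73.4th, 5.98th, 1.37th), Rgs7, a regulator of G-protein signalling (68.6th, 8.39th, 3.28th), and the tubulin tyrosine ligase gene Ttl with Vinac1 (63.8th, 42.2nd, 2.63rd).

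Between the mutants, KI exceeded KO most at Cmas, which activates sialic acid (57.4th in WT, 6.45th in KO, 88.2nd in KI), the nuclear export gene Cse1l (68.9th, 9.9th, 84.7th) and Bicdl1 (69.1st, 0.46th, 75th). At these genes WT was also far above KO. The widest gap the other way was at the shared region of Hspa1a, an inducible HSP70 gene, and Hspa1l. That region scored 122.93 in WT, 297.26 in KO and 67.29 in KI. It stood at the 49.9th, 94.3rd and 3.82nd percentile. Gm9805 (55.2nd, 81.1st, 12.8th) and Plekhm3 (6.07th, 64.5th, 0.147th) followed.

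**Figure D2:**
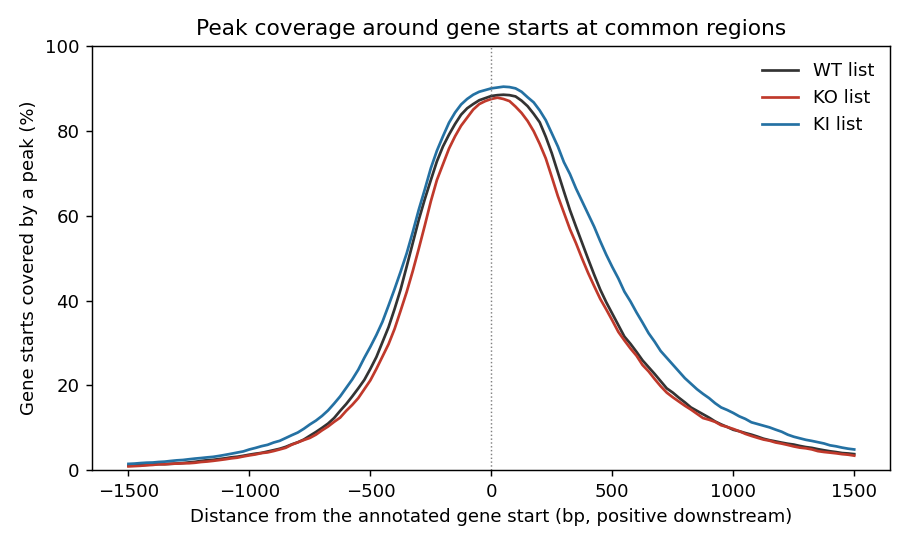
Percent of the 6864 gene starts at common regions that were covered by a peak of each list (y axis), by distance from the annotated start (x axis, bp, positive downstream). All 3 curves peak just downstream of the start, at 88.5% in WT, 87.8% in KO and 90.4% in KI, and fall more slowly downstream.

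Peaks at annotated starts leaned into the gene. Of the 6864 annotated starts with a common region, 88.2% lay inside a WT peak, 87.5% inside a KO peak and 90% inside a KI peak. For starts inside a peak, the centre of the peak was a median of 13 bp (WT), 18 bp (KO) and 38.5 bp (KI) downstream. Regions were chosen near gene ends and only starts inside a peak were measured, so the closeness of centres to starts was largely fixed. At 500 bp downstream, 36.9% of starts were still covered in WT, 35.3% in KO and 47.9% in KI, against 23.9%, 21.2% and 29.1% at the same distance upstream. The plot of coverage around gene starts shows the same lean in all lists, with KI covering more on both sides. Of 1211 genes with several listed starts, 664 (54.8%) had every start in a region. Starts in 2 separate regions were found for 9, among them Mcm7 (replication helicase), E2f3 (cell cycle factor), G3bp2 (stress granules) and Lig4 (DNA end joining), named after the values were seen.

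CpG-rich sequence, which the rule did not use, set these promoters apart. RefSeq promoters were at hand for 7105 of the 8651 genes (82.1%), which gave 7431 promoters overlapping a region, beside 10502 with no peak in any list and 21263 in all. The ratio of observed to expected CpG had a median of 0.819 (quartiles 0.68 and 0.944) at the regions, 0.703 where 1 or 2 lists had a peak and 0.24 where none had. A ratio of 0.6 or more was found in 84.2% (83.3 to 85.0) of the promoters at regions, 63.5% with a peak in some lists, 15.9% with no peak and 47.7% of all. GC content was 62.7% at regions against 49.7% with no peak. Within the regions the contrast was small: 88.6% of promoters in the top decile by score rank were CpG-rich, and 76.2% in the bottom decile. GC content can itself alter the yield of reads, and its part in the scores was not tested.

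**Figure D3:**
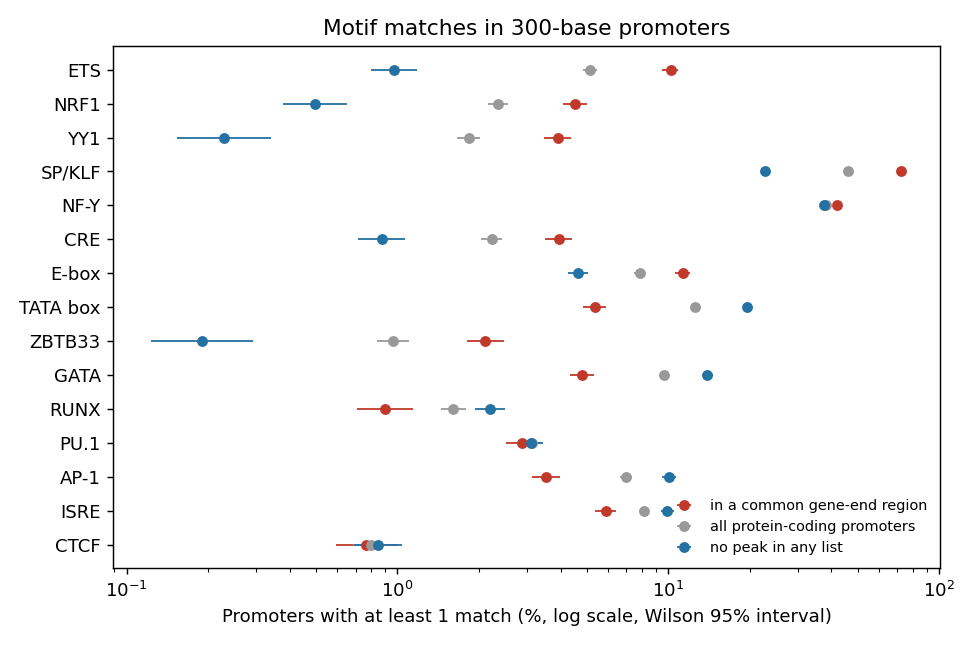
Share of 300-base RefSeq promoters with at least 1 match to each motif (x axis, percent on a log scale, with Wilson 95% intervals), at common gene-end regions, over all protein-coding promoters and where no list had a peak. ETS, NRF1, YY1, CRE and ZBTB33 matches were at least several times as frequent at the regions as where no peak was called, while TATA, GATA, RUNX and AP-1 matches were less frequent.

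ETS, NRF1, YY1, ZBTB33 and SP/KLF motifs were more frequent in promoters at the regions than in those with no peak. GATA, RUNX and AP-1 motifs were less frequent, before CpG content was taken into account. Matches were exact and on both strands. The ETS motif CCGGAAGT was in 10.2% of promoters at regions, against 0.971% with no peak and 5.15% of all. NRF1 (GCGCATGCG) was in 4.54%, 0.495% and 2.35%, YY1 (AAGATGGCG) in 3.9%, 0.229% and 1.83%, and ZBTB33 (TCTCGCGAG) in 2.11%, 0.19% and 0.964%. GGGCGG was in 72.3%, 22.7% and 46.2%. Where 1 or 2 lists had a peak, the shares were 7.04% (ETS), 3.39% (NRF1), 2.3% (YY1), 0.7% (ZBTB33) and 60.1% (GGGCGG). Each of these motifs holds a CpG, in which the regions are rich. Among promoters with a CpG ratio of 0.6 or more alone, ETS matches were in 11% at regions and 2.1% with no peak, YY1 in 4.43% and 0.719%, and GGGCGG in 76.5% and 66.9%. Not all of these motifs rose with rank within the regions. ETS was in 7.65% of the top decile and 10.7% of the bottom, NRF1 in 2.95% and 5.23%, and YY1 in 2.68% and 4.83%, with overlapping intervals. ZBTB33 was in 1.88% and 1.21%, also with overlapping intervals, and GGGCGG in 80.1% and 65.0%.

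The CRE (TGACGTCA) was in 3.94% of promoters at regions, 0.876% with no peak and 2.23% of all, and the E-box CACGTG in 11.3%, 4.65% and 7.84%. Where 1 or 2 lists had a peak, the CRE was in 2.68% and the E-box in 10.5% (9.42 to 11.8), near its share at regions. Both hold a CpG, and among CpG-rich promoters alone the CRE was in 4.36% at regions and 1.8% with no peak, and the E-box in 12% and 9.35%. CCAAT, which holds no CpG, was in 42.0%, 37.6% and 38.2%, and in 28.9% where 1 or 2 lists had a peak. Among CpG-rich promoters alone it was in 41.3% at regions and 29.2% with no peak. By rank within the regions it was in 55.2% of the top decile and 33.6% of the bottom decile, and the median lowest percentile over the lists was 58.7 with CCAAT and 47.1 without. The TATA box TATAAA was rarer at regions (5.34%) than with no peak (19.6%) or in all (12.6%), and promoters with it ranked lower (39.7 against 52.9). Matches to ETS were centred 31 bases before the start and CCAAT 82.5 bases before, as medians. Those to TATAAA had a median position of -151 bases (quartiles -204 and -29), so many lay far from the start.

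The remaining 6 motifs, some of them of factors that act in blood cells, were less frequent at these starts or about as frequent. The AGATAA motif of GATA factors was in 4.8% against 13.9% with no peak and 9.65% of all. TGTGGTTT (RUNX) was in 0.902%, 2.2% and 1.61%, and TGANTCA (AP-1) in 3.53%, 10.1% and 6.99%. GAGGAAGT (PU.1), which shares its core with the ETS motif, was in 2.88%, 3.11% and 3.13%, and GAAANNGAA (ISRE, the interferon response element) in 5.87%, 9.93% and 8.15%. The CTCF core AGGTGGCAG was in 0.767%, 0.847% and 0.8%. The fixed letters of these 6 hold no CpG, and among CpG-rich promoters alone most of the differences shrank or turned. There GATA was in 3.95% at regions and 5.63% with no peak, AP-1 in 3.1% and 4.55%, RUNX in 0.751% and 0.599%, PU.1 in 2.69% and 1.38%, ISRE in 5.64% and 6.41%, and CTCF, whose small gap widened, in 0.719% and 0.959%. A match is a description of letters and no measure of binding.

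**Figure D4:**
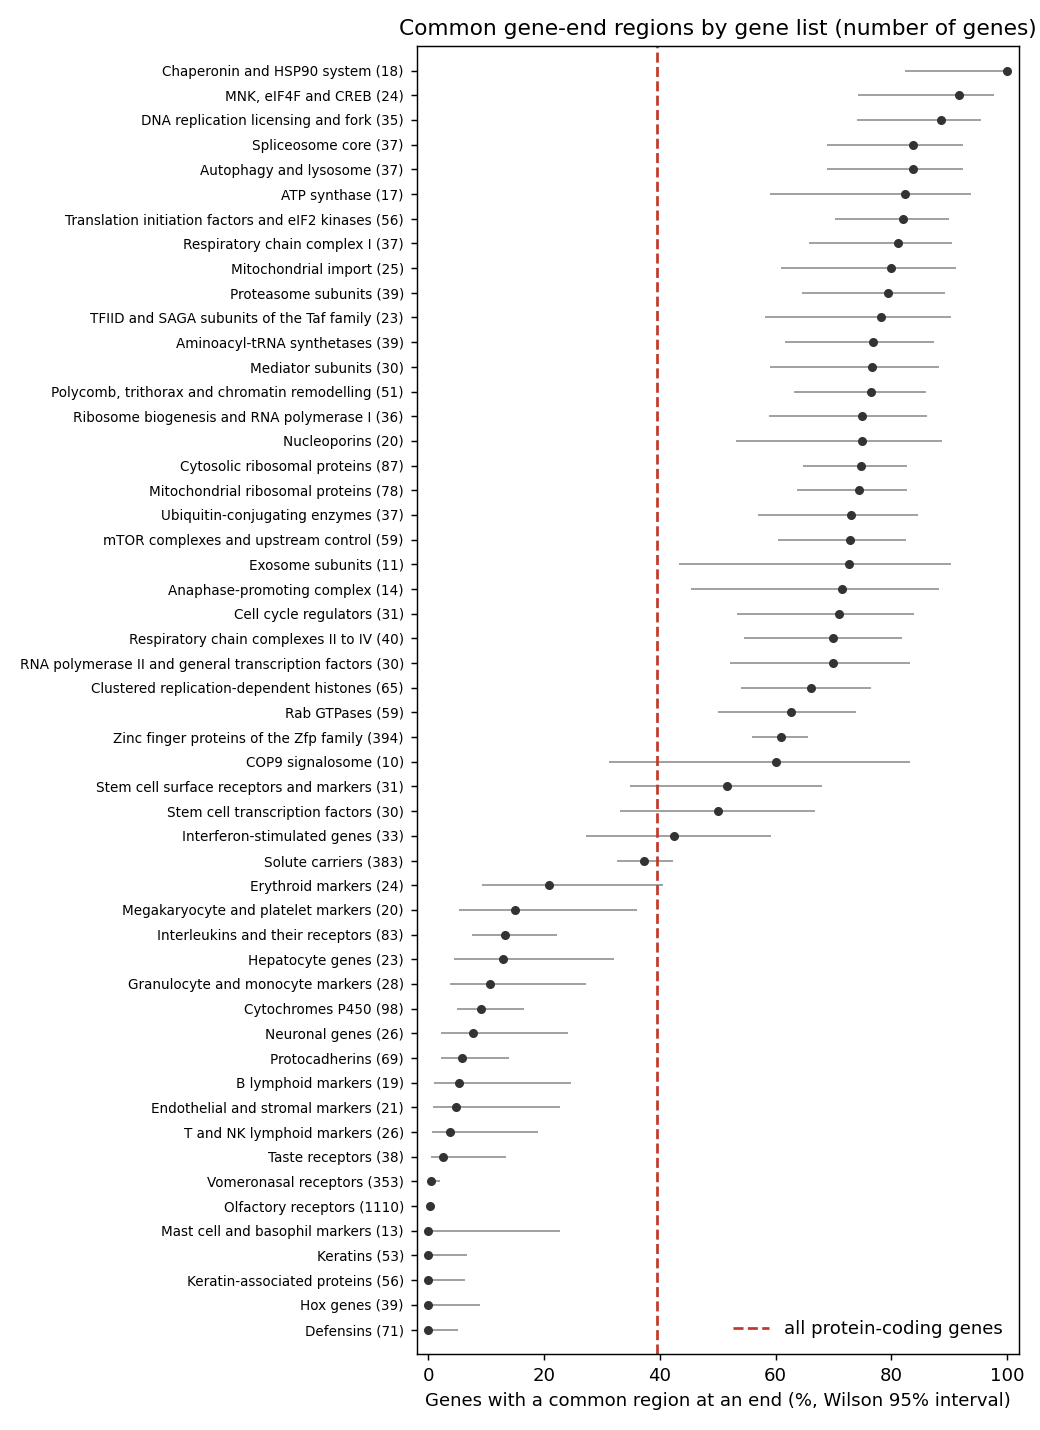
Share of genes with a common region at an end (x axis, percent, points with Wilson 95% intervals) for 52 gene lists and families, with the number of genes in brackets. The dashed line is the 39.5% of all protein-coding genes; complexes of basic cell functions lie to its right and lineage markers and sensory, keratin and defensin families to its left.

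Genes of basic cell functions carried the regions most often. Of 52 gene lists and symbol families, 32 exceeded the 39.5% of all genes, 28 of them with the whole interval, and 18 lay below with the whole interval. All 18 genes of the chaperonin and HSP90 system, which folds newly made proteins, had one (interval 82.4 to 100%). The strongest of them was the shared promoter of Hspd1 and Hspe1, the mitochondrial chaperonin pair, scoring 355.92 in WT, 299.66 in KO and 596.58 in KI. DNA replication factors had one in 31 of 35 (88.6%), led by Rpa3, a subunit of the single-strand binding protein (422.22, 469.4 and 680.58). Spliceosome core genes had one in 31 of 37 (83.8%).

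Mitochondrial and translation genes followed. Complex I of the respiratory chain had regions at 30 of 37 genes (81.1%), the ATP synthase at 14 of 17, complexes II to IV at 28 of 40 and mitochondrial ribosomal proteins at 58 of 78 (74.4%). Mrpl17, of the large mitochondrial subunit, scored 532.18 in WT, 397.08 in KO and 665.37 in KI. Cytosolic ribosomal proteins had regions at 65 of 87 (74.7%), led by Rpl37 (333.69, 383.37 and 566.83). Translation initiation factors and eIF2 kinases had them at 46 of 56 (82.1%), led by Eif2ak3, the PERK kinase of the unfolded protein response (436.05, 500.24 and 567.0). Ribosome biogenesis genes had them at 27 of 36 and aminoacyl-tRNA synthetases, which load tRNAs, at 30 of 39.

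Protein turnover and gene regulation were similar. Proteasome subunits had regions at 31 of 39 genes (79.5%), led by Psmc6 (395.29 in WT, 242.69 in KO and 404.58 in KI), and autophagy and lysosome genes at 31 of 37 (83.8%), led by the initiation scaffold gene Rb1cc1 (249.25, 289.72 and 376.56). Mediator had 23 of 30, the Taf family 18 of 23 and RNA polymerase II with its general factors 21 of 30. Among chromatin regulators, all 13 genes of the BAF remodelling complex had a region, 13 of 18 Polycomb genes, and 3 of 7 DNA methylation genes. Eed, the Polycomb reader of H3K27 methylation, was the strongest (384.67, 333.68 and 508.2). The Zfp zinc finger family, transcription factors many of which silence retroelements, had regions at 240 of 394 genes (60.9%, 56.0 to 65.6).

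Genes of the histone family, most of them clustered and transcribed in S phase, had regions at 43 of 65 (66.2%). These were weak: the median of their lowest percentile over the lists was 19.8, against 49.7 over all genes with a region. The histone promoters differed from the rest in sequence. CCAAT was in 29 of 32 (90.6%, 75.8 to 96.8) and TATAAA in 16 of 32 (50%, 33.6 to 66.4), far above the shares over all regions. H2ac18, a histone H2A gene (chr3:96245397-96245546, plus strand), is shown with both motifs in capitals. Its TATAAA lies 11 bases after the annotated start, not before it. The region scored 140.66 in WT, 121.14 in KO and 330.28 in KI.
H2ac18: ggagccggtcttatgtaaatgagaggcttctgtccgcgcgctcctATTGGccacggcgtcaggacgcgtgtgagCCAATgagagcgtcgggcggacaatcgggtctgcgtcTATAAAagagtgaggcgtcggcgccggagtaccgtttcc

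Further lists held a motif more often than the promoters at regions in general, and 1 example of each is printed, chosen after the shares were seen. The E-box was in 9 of 20 autophagy and lysosome promoters (45.0%, 25.8 to 65.8), in 7 of 18 of the MNK, eIF4F and CREB list (38.9%, 20.3 to 61.4), in 7 of 20 of RNA polymerase II and general factors (35.0%, 18.1 to 56.7) and in 12 of 46 initiation factor promoters (26.1%, 15.6 to 40.3), against 11.3%. Atg3, the enzyme that attaches LC3 to lipid (chr16:45158729-45158878, plus strand), had it in both marked places. The MNK, eIF4F and CREB list and the initiation factors share genes such as Eif4e3 and Eif4g3, so their E-box counts may hold some of the same promoters. The ISRE was in 6 of 14 promoters of interferon-stimulated genes (42.9%, 21.4 to 67.4) against 5.87%. An example is Ifih1, which encodes the double-stranded RNA sensor MDA5 (chr2:62646206-62646355, minus strand). Its match lies 32 bases after the annotated start. The ISRE was also in 10 of 56 cytosolic ribosomal protein promoters (17.9%, 10 to 29.8). A C followed by at least 4 pyrimidines at the annotated start, the TOP motif through which mTOR controls translation of the mRNA, was in 12 of 56 ribosomal protein promoters (21.4%, 12.7 to 33.8). It was in 2.02% of all promoters at regions and 2.21% of all promoters, and Rpl15 (chr14:18270937-18271086, minus strand) shows it. Intervals are wide, and a start that is annotated a base off hides a TOP motif.
Atg3: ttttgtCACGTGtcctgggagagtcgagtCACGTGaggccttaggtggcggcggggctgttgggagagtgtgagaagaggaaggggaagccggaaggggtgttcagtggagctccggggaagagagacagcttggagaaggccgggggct
Ifih1: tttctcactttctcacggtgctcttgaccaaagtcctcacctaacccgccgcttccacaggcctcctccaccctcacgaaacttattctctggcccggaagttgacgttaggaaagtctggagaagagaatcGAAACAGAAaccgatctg
Rpl15: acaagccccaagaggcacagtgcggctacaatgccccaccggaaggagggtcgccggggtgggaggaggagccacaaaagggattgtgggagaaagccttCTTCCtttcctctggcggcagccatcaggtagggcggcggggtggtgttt

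The mTOR pathway, which couples nutrients and growth factors to protein synthesis, had regions at 43 of 59 genes (72.9%, 60.4 to 82.6). Upstream, amino acid sensing genes had them at 19 of 24 and the PI3K, AKT, TSC and RHEB genes at 10 of 13, and outputs such as S6 kinase at 8 of 10. The subunits of the complexes themselves had them at 6 of 12: Akt1s1, Deptor, Mapkap1, Mlst8, Tti1 and Tti2 did, and Mtor, Prr5, Prr5l, Rictor, Rptor and Telo2 did not. The strongest was Mios, a GATOR2 subunit, with scores of 285.06 in WT, 330.51 in KO and 402.67 in KI. Rragc, a Rag GTPase that brings mTORC1 to the lysosome, scored 268.18, 312.93 and 384.24, and Rheb, its direct activator, 287.4, 240.94 and 390.18. All 3 were at or above the 88.5th percentile in every list.

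Some other genes of the pathway differed in rank between the lists. Deptor, an inhibitory subunit, was at the 80.2nd percentile in WT, 36.5th in KO and 72.5th in KI, and Tsc1, of the complex that switches RHEB off, at the 58.7th, 35.0th and 74.2nd. Fnip1, a folliculin partner, was at the 64.5th, 19.5th and 68.8th. At all 3 the KO list stood lowest, but they were named after their values were seen. The gap of Tsc1 between WT and KO was under 25 points. Of all common regions, 10.8% were lower in KO than in WT by 25 points or more. Pathway genes were not counted in this way. Castor2, related to the arginine sensor, was low in KI alone (39.2nd, 41.3rd and 3.4th), and Rps6kb1, S6 kinase, was highest in KO (42.4th, 75.7th and 51.7th). Downstream on the cap-binding side, all 5 kinases and all 9 CREB family genes and cofactors of the MNK, eIF4F and CREB list had a region, and 8 of 10 cap complex genes, the exceptions being Eif4e3 and Eif4g3 (22 of 24, 91.7%). Crem, a cAMP-responsive factor, scored 489.4 in WT, 512.64 in KO and 625.38 in KI. Mknk1 and Mknk2, the kinases of eIF4E, ranked between the 51.1st and 78.7th percentiles.

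**Figure D5:**
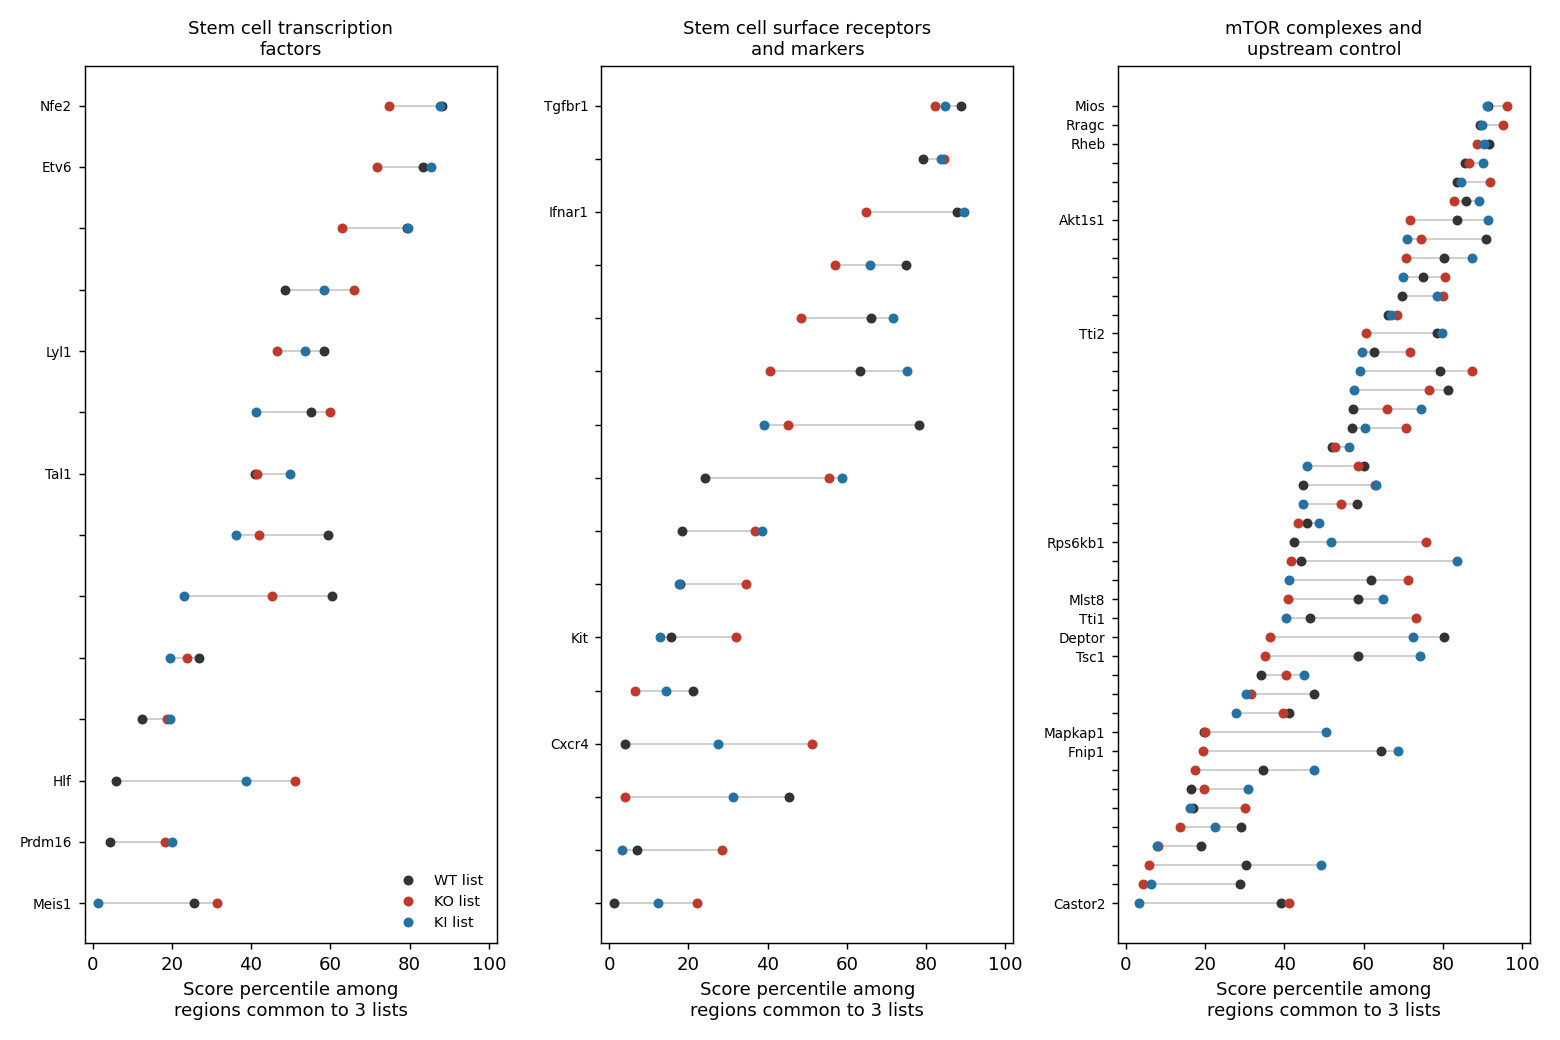
Score percentile among the 12282 common regions (x axis) in the WT, KO and KI lists for genes with a common gene-end region in 3 gene lists: stem cell transcription factors, stem cell surface genes, and mTOR pathway genes (y axis, ordered by lowest percentile). Grey lines join the values of 1 gene, which lie close together for Tal1 and Mios and far apart for Hlf, Cxcr4 and Fnip1; names are given for the genes the text describes, and 1 gene is not shown.

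Genes that define stem cells carried the regions less often than those of basic cell functions. Of 30 stem cell transcription factor genes, 15 had one (50%, 33.2 to 66.8), and of 31 surface receptors and markers 16 (51.6%, 34.8 to 68.0); both intervals include 39.5%. Nfe2, a megakaryocyte and erythroid factor, scored 256.48 in WT, 174.58 in KO and 359.81 in KI, and the ETS repressor gene Etv6 225.91, 164.65 and 338.45. Both were at or above the 71.8th percentile in every list. Hlf (5.88th, 51.0th and 38.7th) and Prdm16 (4.29th, 18.2nd and 20.1st), both HSC regulators, had weak regions that ranked lowest in WT. Meis1, a HOX cofactor, ranked lowest in KI (25.7th, 31.5th and 1.43rd).

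Of the 7 factors known as the heptad that bind together at stem cell enhancers, Tal1 and Lyl1 had a region and Erg, Fli1, Gata2, Lmo2 and Runx1 did not. Runx1 had gene-end peaks in WT and KI, and the other 4 in no list. Kit, the receptor used to sort HSC, had a start region with scores of 70.55 in WT, 90.22 in KO and 93.51 in KI, at or under the 31.9th percentile. Receptors of signals reached 11 of 15, with Tgfbr1 (262.42, 203.83 and 333.36) and Ifnar1 (252.75, 146.61 and 380.31) in the lead. Surface markers reached 5 of 16, and Cd34, Slamf1 and Procr, on which HSC gates rest, had none: WT and KI had a peak at an end of Cd34, WT alone at Procr, and no list at Slamf1. The plot of percentiles by gene sets these values side by side. These regions thus bear on the HSC label only in part.

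A gene end is the outermost annotated one, and a gene may start inside. Of the 10387 genes with a listed start but no region, 502 (4.83%) had a listed start in a common region away from both ends, a count added after the data were seen. They included Cd47, an antiphagocytic surface protein (189.85 in WT, 175.76 in KO and 265.38 in KI), the DNA methyltransferase genes Dnmt1 (166.81, 124.73 and 251.5) and Dnmt3a (72.53, 78.59 and 223.38), the cell cycle kinase gene Cdk6 (75.87, 53.27 and 86.7), and Slc38a9, the lysosomal arginine sensor (148.68, 165.13 and 302.07). Absence from the regions therefore does not mean a closed promoter.

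Marker genes of mature lineages seldom had a region. Erythroid markers had 5 of 24, megakaryocyte and platelet markers 3 of 20, granulocyte and monocyte markers 3 of 28, B cell markers 1 of 19, T and NK cell markers 1 of 26, mast cell and basophil markers 0 of 13, and endothelial and stromal markers 1 of 21. With the WT list left out of the merge, an alternative chosen after seeing the data, erythroid markers had 10 of 24 (41.7%, beside 42.9% of all genes). The globin genes, Mpo, Elane, Cd79a, Pax5, Cd3e and Pecam1 had none. Tfrc, the transferrin receptor, was among the erythroid markers present (123.17 in WT, 125.22 in KO and 134.71 in KI). Cr2, complement receptor 2, was the B cell marker (199.77, 174.54 and 152.87). The regions of Cd3d and Kdr lay at the 3′ end. Csf2ra, a chain of the GM-CSF receptor, had a strong one (413.11, 288.42 and 420.45), and Pf4, a platelet chemokine that HSC biased to platelets also express, a weak one (80.34, 96.69 and 149.76).

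Interferon-stimulated genes, of interest because all mice received poly(I:C), had regions at 14 of 33 (42.4%, 27.2 to 59.2), near the share of all genes. Ifih1 scored 203.11 in WT, 168.48 in KO and 299.19 in KI. Stat2 ranked at the 38.5th percentile in WT, 80.1st in KO and 75.7th in KI, and Gbp7 at the 68.1st, 11.5th and 36.4th. Isg15, Irf7, Ifit1, Ifit3 and all Oas genes of the list lacked a region. There was no untreated library, so an effect of poly(I:C) cannot be seen.

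Families used in other tissues were nearly empty: 4 of 1110 olfactory receptors, 2 of 353 vomeronasal receptors, 0 of 39 Hox genes, 0 of 53 keratins, 0 of 56 keratin-associated proteins and 0 of 71 defensins. Hoxa9, Hoxb4 and Hoxb5, which act in HSC, were among the Hox genes without a region. Cytochromes P450 had 9 of 98, neuronal genes 2 of 26 (Map2 and Snap25) and hepatocyte genes 3 of 23 (Apoa2, Ass1 and Trf). Interleukins and their receptors had 11 of 83, led by Il1rap, the shared co-receptor of the IL-1 family (282.59 in WT, 277.15 in KO and 427.61 in KI). Solute carriers were at the background (143 of 383, 37.3%). By chromosome, the share of genes with a region was 26.1% on X and 1.17% on Y, and reached 48.9% on 12 and 48.2% on 8. These shares count olfactory and vomeronasal receptor genes, which are unevenly placed. Other genes made up 679 of 679 on chromosome 12, 1038 of 1043 on 8 and 959 of 966 on X, but 1613 of 2030 on 7 (share 34.0%). The part of receptor genes in the shares was not tested.

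Requiring a score of 100 or more in each list left 4672 regions at 5548 genes (25.3%). At that setting the histones (18.5%), interferon-stimulated genes (15.2%) and stem cell surface genes (22.6%) fell below the share of all genes, and the other 29 lists that had exceeded it still did. Shares of many other lists were lower too, for example 45.9% for autophagy and lysosome genes, 54.1% for the spliceosome core, 30.0% for Mediator and 0% for megakaryocyte and platelet markers.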

How the data were processed

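Accessible chromatin was measured by ATAC-seq in 3 libraries, 1 per genotype, and each deposited file is a peak list of 5 columns. The last column holds a score per peak, deposited by the authors, that never falls below 50. CASAVA and mm10 are named in the submitters' processing notes. Not given in the sources used here are the aligner, the version of the peak caller, duplicate removal, a shift for the transposase and a control, and the depth is unknown. A deeper library gives higher scores and more weak peaks, so scores were ranked within a list only.

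Peaks were merged with bedtools 2.31.1 at a gap of 0 bp. A region's score in a list is that of its highest peak, and percentiles are over the 12282 common regions unless a list is named. Gene ends, promoters and strands came from RefSeq tables of GRCm38.p6, without entries for some genes. Of the list and family genes, 4045 were matched. Python 3.11.15, pandas 2.3.3 and scipy 1.17.1 were used, and the counting was tested on simulated peaks. Regions, lists, families and motifs were chosen with earlier results of these data known. Genes were named by rule: the 10 highest and 5 lowest by rank in all lists, the 5 widest, the 3 with most genes (ties in genome order), the 3 largest percentile gaps per pair and direction, the 3 on either side of the window, and up to 2 highest members and 4 without a region per gene list. Some genes that the rule names are not reported here. Other genes of these lists were named after their values were seen. Alternatives were the window, the overlap, the merge gap, a score minimum, equal list lengths, gene starts alone and pairs of lists. RNA-seq was not analysed here.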

Additional observations from a re-analysis of the deposited data

How the results depend on the processing

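With 1 library per genotype, nothing here has a replicate error. No paired analysis was possible because each genotype had a single ATAC-seq library. The share of common regions that lay at a gene end, 61.2%, was 58.9% with a window of 500 bp, 65.1% with 2500 bp, 64.1% with lists cut to equal length and 49.6% with annotated starts alone, which leaves out genes of unknown strand. With pairs of lists, chosen after seeing the data, it was 59.5% (WT and KO), 55.9% (WT and KI) and 52.6% (KO and KI). A score minimum of 100, which removes weak peaks, left 4672 regions at 5548 genes and a gene-end share of 76.7%. Median percentiles within the lists then came to 64.8 (WT), 63.7 (KO) and 78.7 (KI), and rank agreement was 0.736 (WT and KO), 0.787 (WT and KI) and 0.776 (KO and KI). At 2500 bp the median percentiles were 73.8 in KO and 83.0 in KI. Under every alternative tried other than the score minimum, the numbers of regions and genes stayed within 1.5 times and 32 lists exceeded the share of all genes. At the score minimum 37 of 52 lists left their interval.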
